A study of Triticum aestivum with 34 samples.

Results

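Class III peroxidases were followed through the wheat ear in 157 gene models of 71963 that passed a filter on low values. A model was counted as a member when its deposited description named a numbered peroxidase, or peroxidase A2, P7 or N, and did not name glutathione or ascorbate. It also had to reach 1 FPKM (fragments per kilobase of transcript, scaled to library size) in at least 2 of 34 libraries. The words matched 417 of the 162233 models in the table, and 260 of these stayed under the filter. Of the 157, 2 are described as OVEREXPRESSOR OF CATIONIC PEROXIDASE 3, a homeodomain-type regulator of defence in Arabidopsis, so 155 are peroxidases by description. The libraries came from bread wheat (Triticum aestivum), genotype shimai22, untreated. Whole spikelets, the ear units that carry the florets, were taken from the basal or the central part of the ear, 6, 9, 12, 15, 21 and 27 days after the terminal spikelet stage. That gave 12 groups of 3 libraries, but 2 for basal day 15 and for central day 21. The labels do not say how many plants made a library or whether replicates were separate plants, so p-values measure the spread between these libraries, which may be technical. The comparison of basal with central spikelets by day is the question stated for the series.

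Class III peroxidases are secreted haem enzymes of land plants. With hydrogen peroxide they oxidise phenolic compounds in the cell wall: monolignols to lignin, ferulic acid on grass arabinoxylan to cross-links, and tyrosines of extensins to protein cross-links. They can also produce reactive oxygen species that loosen walls, so members act in stiffening as well as in growth. Grasses carry large families of them, many in tandem rows, and the numbers in the descriptions follow similarity to named proteins of other species, not a shown function in wheat.

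Library totals were 95144712 to 126139684 estimated counts, and members held 0.0424 to 0.247% of them. Between 55 and 103 members reached 1 FPKM in a library. The files of no 2 replicates held the same counts, with a chi-square per degree of freedom of 4.17 or more, though the excess of counts at multiples of 4 may raise that value. Values are for whole spikelets, so fewer cells of a type and less RNA per cell cannot be told apart. Bread wheat has 3 related subgenomes (A, B and D), and how reads shared by near-identical copies were assigned is not given in the sources used here, so the values of single copies carry that limit.

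Of the 417 matching models 62.4% stayed under the filter, against 55.6% of all models in the table, and 250 had no library at 1 FPKM. The 9 members just inside the filter had a highest value of 1.03 to 2.47 FPKM, and the 10 models just outside it had 1.01 to 1.25 FPKM. Members lay on all subgenomes, 58 of 140 matching models on A, 43 of 122 on B and 56 of 147 on D. Chromosome group 7 held 32 members, group 2 held 26 and group 3 held 23, and the other groups had 16 to 20 each.

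With starts within 200 kb taken as a row, 82 rows held 225 matching models, of which 66 (29.3%) were members, against 91 of 192 lone models (47.4%). A row of 9 models on 3D had 4 members, described as peroxidases 72, 72, 49 and 15, whose highest group means were 10.3, 1.75, 9.63 and 4.12 FPKM. Its counterpart by description on 3A had 7 models and 4 members, at 1.16 to 4.95 FPKM. A row of 8 peroxidase 2-like models on 1B held no member. By description, the largest groups of members were peroxidase 1 (19 members), 2 (18), 5 (16), 4 (9) and 72 (8).

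The summed level of the members was highest on day 21 in basal and on day 15 in central spikelets, and low again on day 27. The basal maximum on day 21 rests on 3 peroxidase 4 models. In basal spikelets the sum was 308 ± 31.0 FPKM (SD, n = 3) on day 6, 455 ± 19.1 on day 9, 829 ± 95.8 on day 12 and 1216 ± 7.09 (n = 2) on day 15. It was 1492 ± 140.3 (n = 3) on day 21 and 385 ± 6.66 on day 27. Central spikelets gave 403 ± 38.2, 672 ± 7.66, 1010 ± 66.6, 1160 ± 63.6, 1062 ± 136.9 (n = 2) and 435 ± 19.2 on the same days. Central libraries were above all basal ones on days 6, 9, 12 and 27, the groups overlapped on day 15, and on day 21 the order was the other way, with basal libraries at 1364 to 1642 and central ones at 965 and 1158.

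A few members made up most of that level on day 21. On that day 7 members were enough for 50% of the sum in either position, against 11 to 21 members in the other groups. The 3 peroxidase 4 models of chromosome group 5 alone made 25.9% of the basal and 24.5% of the central sum on day 21, against at most 1.1% in basal groups and 6.2% in central groups before. Without them, the basal libraries were at 1039 to 1144 FPKM on day 21, below the 1199 and 1206 FPKM of day 15, so the basal maximum moved to day 15. The basal libraries of day 21 were then also above the central ones, at 797 and 806 FPKM.

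Of 4 marker lists, secondary wall and vascular and green tissue shared the reversal of these sums between days 9 and 21. The dividing cell list turned in the opposite direction, and the anther and pollen list did not reverse. The part of these tissues in the sums was not tested. The secondary wall and vascular list had 107 models, 79 of them tested, and the sums cover all models of a list. Its summed level was 317 to 336 FPKM in basal and 604 to 625 in central libraries on day 9. On day 21 its order was also reversed, at 1644 to 1782 in basal and 1200 to 1273 in central libraries. On other days its order was not always that of the members. It was at 753 to 760 in basal and 941 to 1012 in central libraries on day 15, where the members overlapped. On day 27 basal libraries, at 476.5 to 515, were above central ones, at 440 to 467, where the members had the opposite order. The green tissue list (78 models, 74 tested) had the same reversal. It went from 1489 to 1725 against 4086 to 4542 FPKM on day 9 to 10527 to 11434 against 7235 to 8031 on day 21. On day 15 its basal libraries, at 6692 to 7318, were below central ones, at 15373 to 18265, where the members overlapped. On day 27 its libraries overlapped, at 5480 to 5629 against 2930 to 6238, where the members did not. The anther and pollen list (145 models, 99 tested) stayed at 115 to 167 FPKM on days 6, 9 and 12 and reached 392 to 926 on day 27. The dividing cell list (93 models, 78 tested) fell from 1904 to 2176 FPKM on day 6 to 245 to 407 on day 21. It was at 1291 to 1357 in basal and 1003 to 1156 in central libraries on day 9. On day 21 its order was reversed, at 245 to 341 in basal and 400 to 407 in central libraries. Each model of the 4 lists was above 0 in at least 1 library.

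**Figure D1:**
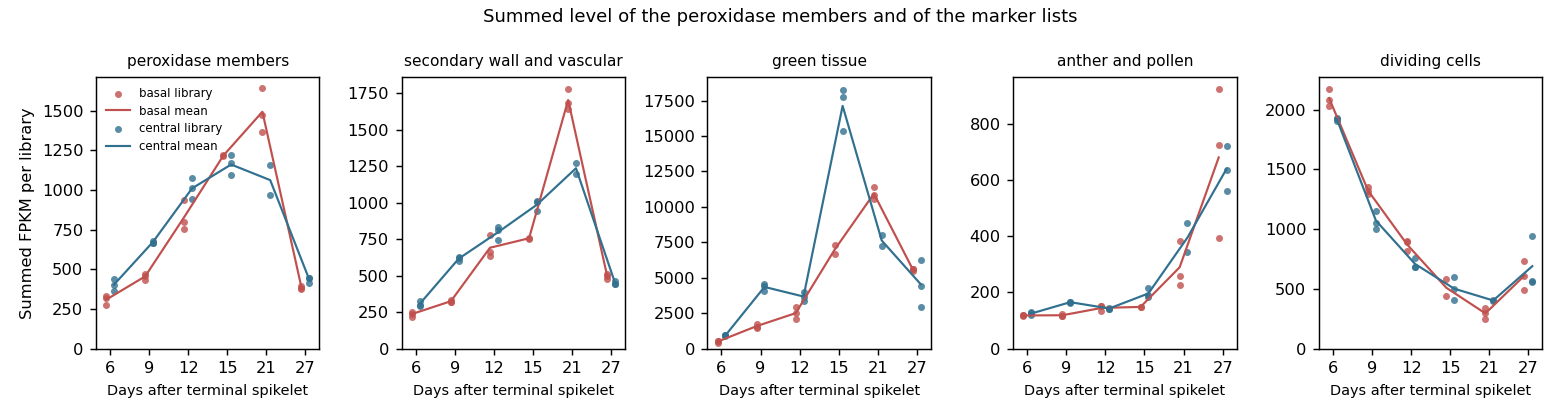
Summed FPKM per library (points) and group mean (lines) by day after the terminal spikelet stage, for the 157 peroxidase members and for 4 marker lists, basal in red and central in blue; days are spaced evenly and each panel has its own scale. The member sum and the secondary wall sum are lower in basal libraries on day 9 and higher on day 21.

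In the mean of both positions, members were highest on days 12, 15 and 21 more often than all tested models, and on days 6 and 9 less often. As the mean of both positions, 41 members (26.1%) were highest on day 15 and 41 (26.1%) on day 21, where 11.0% and 21.0% of all tested models were. A further 30 were highest on day 12 (19.1%, all models 13.9%) and 30 on day 27 (19.1%, near the 20.8% of all models). On day 9 there were 5 (3.18%, all models 8.03%) and on day 6 there were 10 (6.37%, all models 25.4%). The excess on day 21 was in basal spikelets, where 45 members were highest that day (28.7%, all models 19.8%). In central spikelets 34 were (21.7%), near the 21.4% of all models, and day 27 held the most members (40, 25.5%, all models 20.6%). Between successive days, the share of members that rose stayed above the share among all models up to day 15. From day 6 to day 9, 86 members rose and 16 fell (all models 23.2% up and 24.2% down). From day 9 to 12, 102 rose and 11 fell (24.3% and 18.7%), and from day 12 to 15, 64 rose and 32 fell (26.7% and 21.2%). After that falls prevailed, with 43 up and 73 down from day 15 to 21 (29.3% and 29.2%) and 43 up and 84 down from day 21 to 27 (32.5% and 30.3%). These are edgeR quasi-likelihood calls at a Benjamini-Hochberg adjusted p under 0.05 over all tested models, for the mean of both positions.

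**Figure D2:**
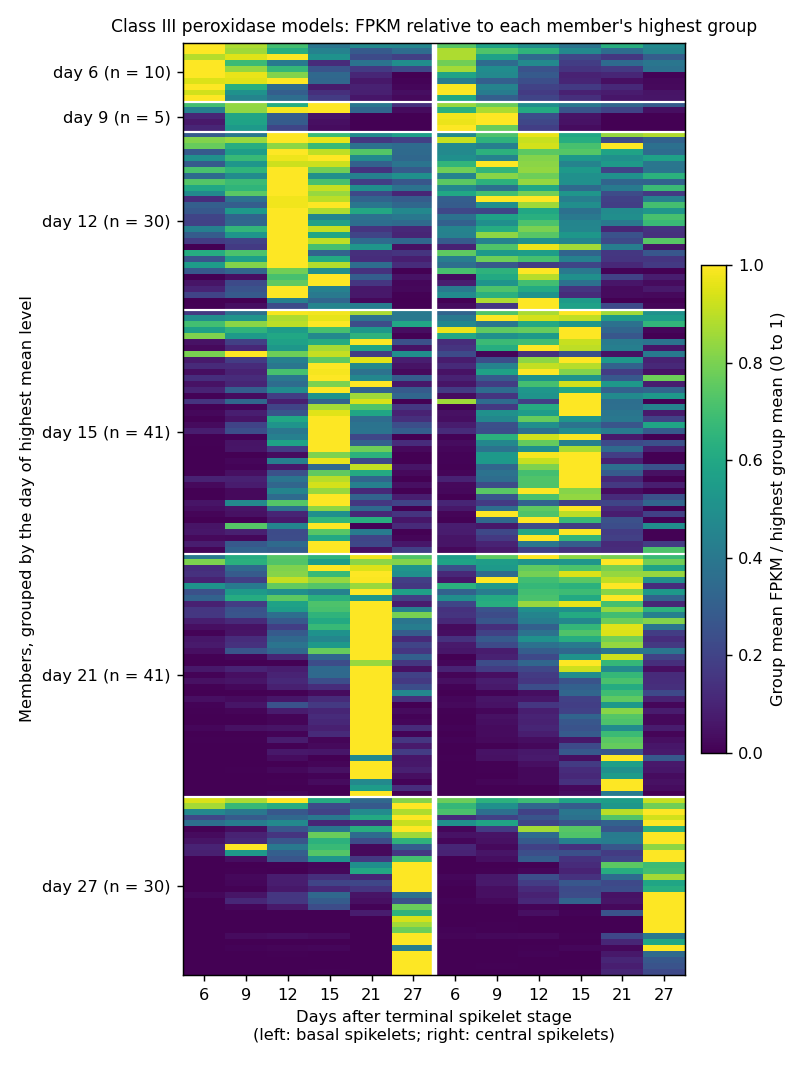
Each line is 1 of 157 members, each column a group (6 basal days, then 6 central days); the colour is the group mean FPKM divided by that member's highest group mean, and members are grouped by the day on which the mean of both positions is highest. The classes that peak on days 15 and 21 hold 41 members each, and many of their lines are brighter in the central columns on days 9 and 12 and in the basal columns on day 21.

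Basal and central spikelets differed in these genes in a way that turned around with time. In the mean of the 6 daily differences, 13 members were higher and 41 lower in basal spikelets (8.28% and 26.1%), against 16.0% and 17.5% of all models. The median member was at -0.24 on the log2 scale, or -0.21 with groups at 0 set to a floor of 12 counts per library, and the median of all models was near 0. The mean hides most of the pattern, because 128 members (81.5%, all models 56.7%) were called in the F test for a basal minus central difference that changes over days. The mean without day 9 had 26 lower calls (16.6%, all models 13.4%), of which 23 were among the 41. With limma on log2(FPKM + 1), 21 were higher and 61 lower (all models 16.1% and 22.6%). In 39 members at least 1 group was at 0 in all its libraries, which leaves their mean difference poorly defined.

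By day the lower calls came first and the higher calls later. On day 6, 6 members were higher and 29 lower in basal spikelets (all models 7.91% and 9.2%), with 13 higher by DESeq2. Day 9 had the largest shift, with 20 higher and 67 lower (18.1% and 18.2%), and a median of -0.65, or -0.46 with the floor. Day 12 had 21 higher and 46 lower (13.6% and 14.5%), and the higher count was 11 without basal replicate 2 or without central replicate 3 of that day. On day 15 the directions were even, 33 higher and 34 lower (8.89% and 13.8%), with 21 lower when basal replicate 2 was left out.

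Day 21 was the reverse of day 9. There 51 members were higher and 17 lower in basal spikelets (10.2% and 6.88%), with a median of 0.42. This day rests on 2 central libraries. Without central replicate 1 the counts were 29 and 8, and the lower count was 10 or 11 without any other library of that day. On day 27 the balance went back, with 20 higher and 38 lower (11.3% and 10.4%), or 24 lower without basal replicate 3.

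**Figure D3:**
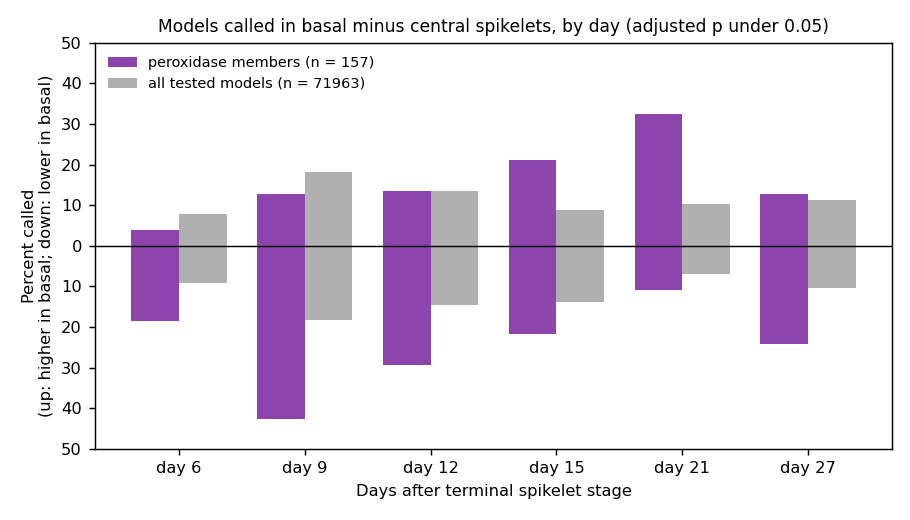
Percent of models called higher (up) or lower (down) in basal than in central spikelets on each day, for the 157 members (purple) and all 71963 tested models (grey), by edgeR quasi-likelihood at adjusted p under 0.05. On day 9, 42.7% of members were lower against 18.2% of all models, and on day 21, 32.5% were higher against 10.2%.

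The turn was seen within single members. Of the 157, 81 (51.6%) were called higher on at least 1 day and lower on another, against 19.8% of all tested models. A course of being lower on day 9, 12 or 15, higher on none of them, and higher on day 21 was seen in 39 members (24.8%, all models 5.56%). The mirror course, higher on day 9, 12 or 15, lower on none of them, and lower on day 21, was seen in 6 members (3.82%, all models 1.98%). When the later call was lower on day 27 instead, there were 16 members (10.2%, all models 2.57%). Calls in 1 direction alone were made for 17 members that were only ever higher (10.8%, all models 26.7%) and 35 that were only ever lower (22.3%, all models 23.3%), and 24 were called on no day (15.3%, all models 30.3%). A steady difference was seen in few members, and these counts are too small to read against the shares of all models. There were 5 members higher on 4 or more days (3.18%, all models 1.55%) and 6 lower on 4 or more days (3.82%, all models 2.39%). The turn came at different days in the classes of peak day, and each class is set beside all models that peaked on the same day. Of the 41 members that peaked on day 15, 28 were lower on day 9 (68.3%, all such models 31.2%) and 27 higher on day 21 (65.9%, all such models 23.3%). Of the 41 that peaked on day 21, 21 were lower on day 9 (51.2%, all such models 27.8%), 24 on day 15 (58.5% and 31.7%), and 16 were higher on day 21 (39.0% and 19.4%). Of the 30 that peaked on day 12, 16 were lower on day 9 (53.3% and 29.7%) and 12 higher on day 15 (40% and 15.7%). The class of day 27 went the other way on day 21, with 9 of 30 lower (30.0% and 12.8%) and 1 higher (3.33% and 2.86%). The basal peak came on a later day than the central one in 45 members (28.7%), which is near the share among all models (30.6%), on the same day in 91 and earlier in 21.

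Peroxidase 40 was highest on day 6 or 9 and was far lower in basal spikelets on day 6. In Arabidopsis, PRX40 acts in the tapetum, the nourishing layer of the anther, where with a related peroxidase it cross-links extensins and keeps the layer's walls intact. TraesCS5A03G0784800 (5A:535899526-535901185, plus the models TraesCS5B03G0817300 and TraesCS5D03G0743200 on 5B and 5D) read 4.37, 2.60 and 2.58 FPKM in basal and 32.5, 24.4 and 36.9 FPKM in central libraries on day 6. No basal library came near a central one, and the difference was -3.22 ± 0.32 on the log2 scale (SE, 9.33-fold, adjusted p = 1.65e-07). On day 9 the basal libraries had risen to 15.1, 17.3 and 17.8 FPKM against 19.4, 29.0 and 23.5, which is a difference of -0.51 ± 0.28 that did not pass (adjusted p = 0.172).

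From then on the 5A copy went down in both positions. It was at 4.11 to 8.04 FPKM in basal and 4.33 to 8.21 in central libraries on day 12, and at 0.68 to 1.82 in all libraries on day 15. On day 27 all 6 libraries were at 0. The step from day 9 to day 12 (-1.72 ± 0.21, adjusted p = 7.48e-07) and that from day 12 to day 15 (-2.44 ± 0.27, adjusted p = 1.08e-07) were the largest called falls of these steps among members with a group mean of 5 FPKM or more on either day. The mean of 6 days could not be tested for it, since it includes days at 0 (adjusted p = 1 by edgeR), while limma on log2(FPKM + 1) gave -0.54 (adjusted p = 2.66e-05).

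The 5B and 5D copies went the same way. On day 6 the 5B copy had 3.85, 2.53 and 2.41 FPKM in basal and 28.0, 19.9 and 32.8 in central libraries (-3.12 ± 0.32, adjusted p = 2.78e-07). The 5D copy had 2.98, 1.68 and 0.76 against 27.0, 19.7 and 29.8 FPKM (-3.75 ± 0.38, adjusted p = 3.24e-08). Day 9 was past the threshold for the 5B copy only (adjusted p = 0.0398), and 0.0615 for the 5D copy, and whether the copies differ was not tested. The anther and pollen list as a whole was close between positions on day 6, at 115 to 120 FPKM in basal and 120 to 130 in central libraries.

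**Figure D4:**
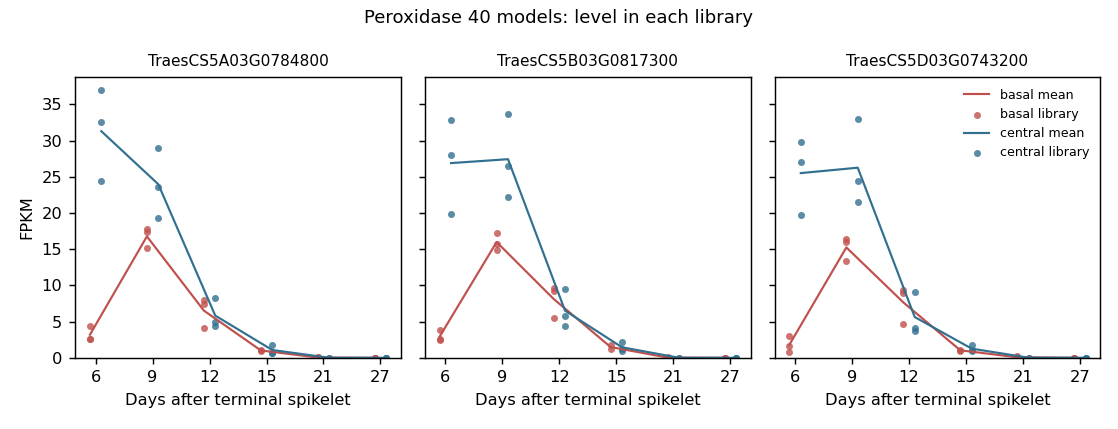
FPKM of the 3 peroxidase 40 models in each library (points) and group mean (lines) by day, basal in red and central in blue; days are spaced evenly. Central libraries start between 19.7 and 36.9 FPKM on day 6, basal ones between 0.76 and 4.37, and both positions are near 0 from day 21 on.

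A set of peroxidase 2-like models on chromosome group 2 switched on later. Among members with a group mean of 5 FPKM or more, its 2D copy had the smallest p for a difference that changes over days. The 2D and 2B copies each had 2 groups at 0 in that test. TraesCS2D03G0228300 (2D:62214254-62216088) was near 0 on day 6. On day 9 it read 0.79, 0.79 and 0.38 FPKM in basal and 20.3, 20.1 and 19.3 in central libraries, a gap of -4.93 ± 0.22 (30.6-fold, adjusted p = 3.97e-15). The basal libraries then caught up, to 14.0, 20.3 and 13.8 against 32.2, 39.8 and 30.0 FPKM on day 12 (-1.11 ± 0.17, adjusted p = 2.02e-05). On day 15 the groups overlapped, at 36.4 and 35.4 against 32.3, 37.5 and 41.6 FPKM. On day 21 basal libraries were higher, at 7.81, 8.16 and 8.06 against 2.88 and 3.52 FPKM (1.46 ± 0.21, adjusted p = 2.31e-05), and on day 27 all 6 libraries were at 0.

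The matching models on 2B and 2A had this course too. TraesCS2B03G0306900 (2B:101012192-101014080) had 0.12, 0.33 and 0.19 FPKM in basal and 14.7, 12.7 and 13.0 in central libraries on day 9 (-5.95 ± 0.33, 61.6-fold, adjusted p = 9.64e-14). TraesCS2A03G0221600 (2A:64493294-64495143) had 0.78, 0.72 and 0.53 against 19.4, 19.5 and 17.0 FPKM (-4.78 ± 0.27, adjusted p = 1.23e-12). On day 21 both were higher in basal libraries, by 1.68 ± 0.29 (adjusted p = 0.000185) and 1.93 ± 0.30 (adjusted p = 0.000106). Among members with a group mean of 5 FPKM or more on either day of the step, the 2D copy had the largest called rise from day 6 to 9 (5.15 ± 0.26, adjusted p = 3.99e-14), the 2B copy that from day 9 to 12 (2.96 ± 0.20, adjusted p = 9.37e-12), and the 2A copy the largest fall from day 15 to 21 (-3.67 ± 0.19, adjusted p = 7.87e-14). These models were at 0 in all day 27 libraries, so no fold is given for that step.

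The peroxidase 43-like models of chromosome group 4 rose at the same time and crossed over sooner. TraesCS4D03G0203300 (4D:82063068-82064874) read 1.15, 1.15 and 1 FPKM in basal and 18.0, 15.9 and 17.2 in central libraries on day 9 (-3.94 ± 0.22, 15.4-fold, adjusted p = 5.44e-14). On day 12 the gap was -0.35 ± 0.18 (adjusted p = 0.141). On day 15 basal libraries, at 28.4 and 27.5 FPKM, were above central ones, at 15.6, 14.7 and 11.8 FPKM (0.87 ± 0.20, adjusted p = 0.00143). Over the 6 days it was lower in basal spikelets by 1.18 ± 0.10 on the log2 scale (adjusted p = 1.35e-09).

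Its 4A and 4B counterparts crossed on the same day. TraesCS4A03G0539300 (4A:490504565-490506399) went from 1.91, 1.64 and 1.72 against 16.1, 15.4 and 15.9 FPKM on day 9 (-3.17 ± 0.19, adjusted p = 4.15e-13) to 32.6 and 35.5 against 19.8, 17.7 and 15.6 FPKM on day 15 (0.83 ± 0.18, adjusted p = 0.00123). TraesCS4B03G0240300 was at a lower level, with -3.12 ± 0.29 on day 9 (adjusted p = 1.75e-09) and 1.09 ± 0.25 on day 15 (adjusted p = 0.00188).

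Of 6 peroxidase A2-like members, the 3 of chromosome group 4 were lower early and higher on day 21. In Arabidopsis, peroxidase A2 has been studied as a lignin-forming enzyme. TraesCS4B03G0634900 (4B:483145204-483147238), peroxidase A2-like and among the 5 members with the highest mean FPKM (23.8), had 4.52, 4.88 and 3.66 FPKM in basal and 29.3, 25.7 and 25.0 in central libraries on day 9. No libraries of the 2 positions overlapped there (-2.61 ± 0.19, adjusted p = 2.19e-11). On day 15 the positions were at 59.2 and 64.8 against 80.0, 74.4 and 69.8 FPKM, a gap that did not pass (adjusted p = 0.167), and on day 21 basal libraries were higher, at 31.3, 22.3 and 23.3 against 7.39 and 10.2 FPKM (1.68 ± 0.21, adjusted p = 3.25e-06). Its mean difference of -0.71 ± 0.12 (adjusted p = 2.4e-05) was -0.33 without day 9 (adjusted p = 0.0766). The A2-like models on 4A and 4D were also lower on days 9 and 12 and higher on day 21.

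The 3 peroxidase 56-like models of chromosome group 6 shared these steps and were lower again on day 27. TraesCS6B03G0997900 (6B:629146637-629150137) read 1.5, 1.63 and 2.08 FPKM in basal and 17.2, 17.4 and 19.0 in central libraries on day 9 (-3.35 ± 0.28, adjusted p = 2.69e-10). By day 15 the basal libraries, at 66.8 and 68.6 FPKM, were above the central ones, at 58.0, 59.0 and 53.4 FPKM, though the difference did not pass (adjusted p = 0.773). On day 21 basal spikelets were higher (1.52 ± 0.28, adjusted p = 0.000415), and on day 27 lower, at 8.51, 5.78 and 2.93 against 13.2, 16.2 and 21.4 FPKM (-1.47 ± 0.25, adjusted p = 8.92e-05). Its mean over 6 days, -0.67 ± 0.14 (adjusted p = 0.000671), was -0.13 without day 9 (adjusted p = 0.62). The 6A and 6D copies were called in the same direction on days 9, 12, 21 and 27.

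Peroxidases 70 and 24 completed the sets that were lower in every subgenome in the mean of 6 days. The peroxidase 70-like models on 4A, 4B and 4D were lower over the 6 days by 0.92 ± 0.08, 0.51 ± 0.08 and 0.63 ± 0.07 on the log2 scale (adjusted p = 3.43e-10, 6.01e-06 and 1.99e-08). TraesCS4D03G0442200, with the highest single value of them, had 6.82, 8.38 and 6.81 FPKM in basal and 25.4, 23.7 and 28.5 in central libraries on day 9. It was lower on each of days 6, 9, 12 and 15 and higher on day 21, at 42.3, 40 and 41.2 against 25.4 and 32.7 FPKM. The peroxidase 24-like models on 5A, 5B and 5D were lower by 1.03 ± 0.14, 1.11 ± 0.30 and 0.60 ± 0.13 (adjusted p = 1.25e-06, 0.00438 and 0.000654) and stayed under 10 FPKM.

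**Figure D5:**
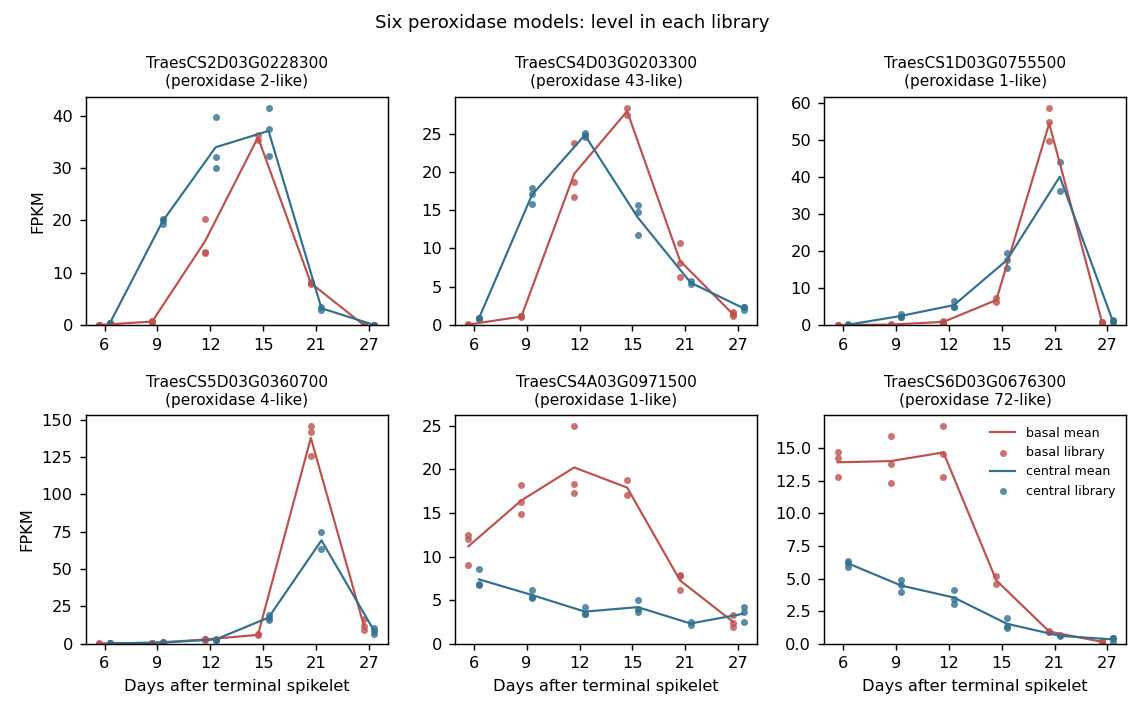
FPKM of 6 members in each library (points) and group mean (lines) by day, basal in red and central in blue; days are spaced evenly and each panel has its own scale. In the first 4 panels central libraries rise earlier and basal ones are higher on day 21, though not past the threshold in each panel. In the last 2 panels basal libraries are higher from day 6 to day 15.

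The highest levels of the family were in members that peaked on day 21. TraesCS5B03G0408000 (5B:278343995-278346415), peroxidase 4-like, had the highest mean of all members (38.7 FPKM). In Arabidopsis a peroxidase of this number takes part in lignification. On day 15 it was at 6.30 and 4.47 FPKM in basal and 52.5, 49.5 and 50.8 in central libraries, far apart (-3.36 ± 0.45, 10.3-fold, adjusted p = 3.54e-06). On day 21 it reached 355, 161 and 169 against 260.1 and 89.7 FPKM, with libraries of both positions spread and overlapping (adjusted p = 0.385). Over 6 days it was lower by 1.11 ± 0.22 on the log2 scale (adjusted p = 0.000284).

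Its 5D counterpart turned around between those days. TraesCS5D03G0360700 (5D:233431813-233434163) had 6.29 and 5.71 against 19.2, 15.9 and 17.6 FPKM on day 15 (-1.67 ± 0.21, adjusted p = 1.58e-06). On day 21 it had 126.1, 142.1 and 145.7 in basal and 75.0 and 63.6 FPKM in central libraries (1.13 ± 0.20, adjusted p = 0.000202). The rank of the positions was thus opposite on the 2 days, with no overlap on either, and the mean of 6 days did not pass (-0.11 ± 0.10, adjusted p = 0.469).

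A set of 3 peroxidase 1-like models of chromosome group 1 was among the 6 lowest mean differences of called members that reached 5 FPKM. TraesCS1D03G0755500 (1D:414943653-414945198) had 0.15, 0.09 and 0.07 FPKM in basal and 2.14, 2.99 and 2.25 in central libraries on day 9, and 0.65, 0.86 and 1.03 against 4.76, 6.43 and 4.93 on day 12. Both gaps passed, at -4.57 ± 0.38 (adjusted p = 8.02e-11) and -2.69 ± 0.25 (adjusted p = 3.18e-09). By day 21 it was at 49.6, 58.7 and 54.8 against 36.1 and 43.9 FPKM, higher in every basal library but not past the threshold (adjusted p = 0.0647). The mean of 6 days was -1.79 ± 0.22 (adjusted p = 2.27e-07).

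TraesCS1B03G0906800 (1B:562803285-562805144) and TraesCS1A03G0789400 (1A:510529804-510531328) had means of -1.47 ± 0.19 (adjusted p = 5.81e-07) and -1.35 ± 0.19 (adjusted p = 3.44e-06). The 1A copy had the largest rise from day 12 to 15 of members at 5 FPKM (2.90 ± 0.18, adjusted p = 7.98e-13). It was at 66.0, 72.4 and 74.3 FPKM in basal and 44.5 and 52.0 in central libraries on day 21 (0.69 ± 0.23, adjusted p = 0.0378). On day 27 these models were at 0.43 to 1.40 FPKM in all libraries.

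Strongly expressed peroxidase 2 models on 1A and 1D had smaller differences. TraesCS1D03G0184100 (1D:65759476-65763319, mean 32.2 FPKM) was lower on day 9, at 8.25, 7.00 and 7.35 against 10.7, 11.3 and 10.9 FPKM (-0.54 ± 0.13, adjusted p = 0.00181). It was higher on day 21, at 134, 123 and 152 against 111 and 83.1 FPKM (0.62 ± 0.14, adjusted p = 0.0027). TraesCS1A03G0190000 (1A:63003403-63006984, mean 30.0 FPKM) was lower on day 9 (-0.67 ± 0.14, adjusted p = 0.000383) and higher on day 27 (0.39 ± 0.14, adjusted p = 0.0474). In the mean of 6 days neither passed (adjusted p = 0.985 and 0.35), and without day 9 the 1A model was higher by 0.23 (adjusted p = 0.0109).

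The peroxidase 5-like model TraesCS1D03G0185600 (1D:66559888-66562809) had the largest day 21 difference among members at 5 FPKM. It was at 0 in all day 6 libraries, and on day 15 lower in basal spikelets, at 0.48 and 0.33 against 2.14, 2.22 and 1.33 FPKM. On day 21 it was at 6.47, 6.27 and 7.83 in basal and 1.74 and 1.93 FPKM in central libraries (2.04 ± 0.31, 4.11-fold, adjusted p = 5.81e-05). Peroxidase 39-like TraesCS7A03G1097500 made the same turn, from 0.03 and 0.18 against 1.31, 1.10 and 1.11 FPKM on day 15 (-3.55 ± 0.49, adjusted p = 1.21e-06) to 8.85, 11.9 and 10.2 against 5.91 and 5.4 on day 21 (1 ± 0.24, adjusted p = 0.00263). Its 7D counterpart, TraesCS7D03G1048000 (7D:563536921-563541661), had the largest rise from day 15 to 21 among members at 5 FPKM (4.76 ± 0.32, adjusted p = 1.23e-13). It was at 0.06 to 0.56 FPKM on day 15 and 4.60 to 7.57 FPKM on day 21, where the positions were not separated by the test (adjusted p = 0.193).

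A smaller set of members was higher in basal spikelets. TraesCS4A03G0971500 (4A:668518052-668523217), peroxidase 1-like, led it with a mean difference of 1.34 ± 0.09 (2.53-fold, adjusted p = 2.58e-12). It read 18.2, 16.3 and 14.9 FPKM in basal and 5.41, 6.13 and 5.24 in central libraries on day 9, and 17.3, 25.0 and 18.4 against 4.25, 3.41 and 3.40 on day 12. The groups did not overlap on any of days 6 to 21, and day 12 had the widest gap (2.43 ± 0.20, adjusted p = 8.98e-10). On day 27 they overlapped, at 3.34, 2.35 and 1.90 against 2.51, 4.19 and 3.64 FPKM (adjusted p = 0.259).

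Peroxidase 72-like models of group 6 were higher in basal spikelets early. In Arabidopsis a peroxidase of this number is needed for normal lignin content. TraesCS6D03G0676300 (6D:413887317-413890461) had 14.7, 12.8 and 14.3 FPKM in basal and 5.89, 6.37 and 6.21 in central libraries on day 6 (1.25 ± 0.16, adjusted p = 3.04e-06). On day 12 it had 12.8, 16.7 and 14.5 against 4.10, 3.05 and 3.47 FPKM (2.02 ± 0.17, 4.07-fold, adjusted p = 9.81e-10). Both positions were under 1 FPKM on days 21 and 27, and day 27 was lower in basal spikelets (-1.08 ± 0.38, adjusted p = 0.0385). Its mean difference was 1.02 ± 0.10 (adjusted p = 1.9e-08).

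The copies of peroxidase 72 on 6A and 6B had smaller differences or none past the threshold. TraesCS6A03G0800500 (6A:540967470-540970283) was higher on days 6, 9, 12 and 15, with 7.53, 6.27 and 7.40 against 4.05, 4.07 and 4.20 FPKM on day 6 (0.86 ± 0.15, adjusted p = 0.000175). TraesCS6B03G0945500 (6B:594336980-594340677) had 7.42, 5.59 and 6.97 against 3.52, 3.97 and 4.40 FPKM on day 6, which did not pass (adjusted p = 0.0747). It had the largest fall from day 6 to 9 among members at 5 FPKM (-1.17 ± 0.24, adjusted p = 0.000169).

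Peroxidase 16 was the only set of 3 copies, of 16 sets, that was higher in every subgenome in the mean of 6 days. TraesCS7B03G0881800 (7B:587996036-588000173) read 10.7, 9.05 and 9.00 FPKM in basal and 3.55, 3.74 and 3.98 in central libraries on day 9 (1.35 ± 0.18, adjusted p = 6.78e-07). TraesCS7A03G1040200 (7A:625582077-625585345) was at 19.4 and 17.9 against 7.57, 7.13 and 6.30 FPKM on day 15 (1.29 ± 0.18, adjusted p = 5.43e-06), and on day 27 it was lower, at 9.39, 7.46 and 6.19 against 10.2, 16.3 and 15.2 (-0.77 ± 0.16, adjusted p = 0.00118). Mean differences were 0.67 ± 0.07, 0.49 ± 0.07 and, on 7D, 0.18 ± 0.06 (adjusted p = 5.5e-08, 3.69e-06 and 0.0156).

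Among the other named members on this side, TraesCS4A03G0622200 switched direction on day 27. TraesCS7A03G0214400 (7A:57779305-57782451), peroxidase 1-like, was higher on day 12, at 7.29, 9.16 and 6.67 against 2.69, 2.69 and 2.64 FPKM, and by 0.59 ± 0.14 in the mean (adjusted p = 0.00121). TraesCS4A03G0622200 (4A:543360514-543361959), peroxidase 2-like, was higher by 0.51 ± 0.08 in the mean (adjusted p = 1.73e-05). It reached 42.4 and 35.7 FPKM in basal against 10.9, 13.3 and 9.90 in central libraries on day 15 (1.67 ± 0.19, adjusted p = 4.1e-07). On day 27 it was at 2.61, 2.22 and 2.42 against 6.55, 5.21 and 9.10 FPKM, so the basal libraries were now all below the central ones (-1.43 ± 0.20, adjusted p = 6.19e-06).

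The last day brought members that were near 0 before. Peroxidase 44 of Arabidopsis acts in root hair growth. TraesCS4A03G0069100 (4A:29031950-29033671) was at 0 to 0.17 FPKM in every library up to day 15. On day 21 the basal libraries were at 0, 0 and 0.01 FPKM and the central ones at 0.80 and 0.49. On day 27 it reached 4, 10.8 and 14.4 in basal and 5.14, 2.81 and 2.13 FPKM in central libraries (1.63 ± 0.31, adjusted p = 0.000171, but 0.482 by DESeq2). Basal replicate 1 lay within the central range, and the other basal libraries were above it.

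TraesCS4D03G0638600 (4D:439910272-439911972), also peroxidase 44-like, gave the same order of libraries on day 27, with 4.19, 9.63 and 12.3 against 4.58, 3.15 and 2.70 FPKM (1.42 ± 0.28, adjusted p = 0.000358). All 3 copies were lower in basal spikelets on day 21 and higher on day 27. The anther and pollen list had the same spread among basal libraries on day 27, from 392 to 926 FPKM, and its part in this result was not tested. TraesCS7A03G0543500 (7A:212112373-212113934), peroxidase 5-like, was at 0 in all libraries of days 15 and 21 and at 3.22 to 8.24 FPKM on day 27 in both positions, which do not differ past the threshold there (adjusted p = 0.511).

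On day 21 the lower members with 5 FPKM or more had modest differences. TraesCS2B03G0738900 (2B:401218616-401220088), peroxidase 1-like, was at 5.74, 3.66 and 3.52 against 12.3 and 6.07 FPKM, and basal and central libraries did not overlap but lay close (-0.96 ± 0.32, adjusted p = 0.031). The difference was -0.85 and -0.84 without basal replicate 2 or 3 of that day (adjusted p = 0.103 and 0.118), -0.35 without central replicate 1 (adjusted p = 0.635) and -0.97 with DESeq2 (adjusted p = 0.614), and none of these passed. Its mean difference of -1.57 ± 0.58 (adjusted p = 0.0335) was -1.51 and -1.50 without central replicate 1 or 3 of day 6 (adjusted p = 0.151 and 0.15), -1.43 without day 9 (adjusted p = 0.088) and -1.57 without the filter (adjusted p = 0.0562), with none past the threshold. TraesCS3B03G0522400 (3B:267773820-267775915), peroxidase 1-like, was at 4.80, 3.54 and 4.02 against 6.01 and 8.36 FPKM (-0.67 ± 0.15, adjusted p = 0.00296, and 0.159 without central replicate 2).

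Copies on the A, B and D subgenomes had the same call or the same peak day in a number of sets. No such sets over all models are given for comparison. Sets were taken where 1 described number was found exactly once on each of the 3 chromosomes of a group, which gave 16 sets with 48 members. In the mean of 6 days, 10 of the 16 sets had the same call in all 3 copies, with 1 set higher (peroxidase 16), 4 lower (peroxidases 24, 43, 56 and 70) and 5 not called. The sets not called do not show a shared absence of a difference. They include peroxidase 40, where days at 0 left the mean of the 5A copy untestable. Copies of peroxidases 39 and 44 also had a group mean of 0 FPKM. The peroxidase 44 copies were all lower on day 21 and all higher on day 27. Over the 12 groups, the lowest correlation between copies was -0.389 in peroxidase 1 of group 2 and 0.39 in peroxidase 3 of group 7. It was 0.598 to 0.994 in the other sets. In 11 sets the 3 copies peaked on the same day. On day 9, 6 sets were lower in all copies (peroxidases 3 on group 7, 24, 43, 56, 70 and A2) and 1 higher. On day 21, 3 sets were higher in all copies (24, 56 and A2) and 1 lower (44). Copies were called in opposite directions in 1 set on day 15 (peroxidase 1 of group 2) and in 1 set on day 27 (peroxidase 4).

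Levels within a set could be far apart. The peroxidase 4 copies reached group means of 228.5 FPKM on 5B, 137.9 on 5D and 19.5 on 5A. The peroxidase 43 copy on 4B reached 9.10 FPKM, against 34 on 4A and 27.9 on 4D, while the peroxidase 40 copies were within 26.3 to 31.3 FPKM.

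Genes that supply or use the same chemistry were also more often lower than higher in basal spikelets in the mean of 6 days, beside 16.0% higher and 17.5% lower among all models. The lower share ran from 24.1% for germin-like proteins and oxalate oxidases and 25.0% for NADPH oxidases to 47.8% for laccases. Counts for these lists are given for the mean with day 9 only. NADPH oxidases, which make superoxide at the cell surface, had 2 higher and 7 lower of 28 tested. TraesCS3D03G0772900, a respiratory burst oxidase of type H, was lower by 0.59 ± 0.12 (adjusted p = 0.000209) and TraesCSU03G0033200LC, protein B1, higher by 0.46 ± 0.14 (adjusted p = 0.0132). Superoxide dismutases, which turn superoxide into hydrogen peroxide, had 1 higher and 9 lower of 19. The manganese form TraesCS2A03G1241200 was lower by 0.25 ± 0.03 (adjusted p = 3.34e-07), and TraesCS7A03G0108400 was higher by 0.13 ± 0.04 (adjusted p = 0.0155), a difference of 0.07 with limma, 0.13 without the filter and 0.11 without central replicate 2 of day 21 that did not pass there (adjusted p = 0.0678, 0.0677 and 0.0558).

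Enzymes that remove hydrogen peroxide gave 3 lower of 7 for catalases, led by catalase-1, TraesCS4B03G0844400 (-1.17 ± 0.13, adjusted p = 6.59e-08). Ascorbate and glutathione peroxidases had 2 higher and 15 lower of 33. Cytosolic ascorbate peroxidase 1, TraesCS4B03G0554400, was higher by 0.31 ± 0.05 (adjusted p = 1.28e-05). The lowest p among the lower ones, 1.92e-07, belonged to TraesCS6D03G0559800;TraesCS6D03G0559900, a model that joins a peroxidase with tripeptidyl-peptidase 2, at -0.30 ± 0.03. Germin-like proteins and oxalate oxidases, some of which produce hydrogen peroxide in the wall, had 7 lower and 1 higher of 29. The lower ones were led by germin-like protein 5-1, TraesCS3D03G0384100 (-1.33 ± 0.08, adjusted p = 3.01e-12). The higher one, TraesCS3D03G0218200 (0.54 ± 0.13, adjusted p = 0.00157, and 0.0911 without day 9), is DELAY OF GERMINATION 1-like and was caught by the search word alone.

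Lists of wall substrates and partners followed. Laccases, which also oxidise monolignols, had 1 higher and 11 lower of 23 with a median of -1.08, or -0.95 with the floor. Laccase-13-like TraesCS1B03G0817000 was at -2.00 ± 0.28 (adjusted p = 1.62e-06), and the joined laccase-1-like model TraesCS1D03G0707300;TraesCS1D03G0707400 at 0.18 ± 0.04 (adjusted p = 0.000471). Monolignol synthesis had 20 higher and 75 lower of 188. Phenylalanine ammonia-lyase TraesCS6A03G0614100, the entry enzyme, was lower by 1.07 ± 0.06 (adjusted p = 1e-12), and the 4-coumarate-CoA ligase-like TraesCS4B03G0846200 was higher by 1.24 ± 0.08 (adjusted p = 1.19e-12).

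Dirigent proteins, which steer the coupling of phenolic radicals, had 13 lower of 39. The lowest p was that of TraesCS5D03G0431100, dirigent protein 2-like (adjusted p = 3.04e-09), which had 1 group at 0 in all its libraries, so no fold is given. Extensins, wall proteins that peroxidases can cross-link, had 4 higher and 22 lower of 65. Leucine-rich repeat extensin-like TraesCS1D03G0286200 was at -0.49 ± 0.05 (adjusted p = 4.62e-09) and TraesCS3D03G0654300 at 0.32 ± 0.08 (adjusted p = 0.00277, and 0.192 without day 9). Peroxidases described in other words, a list made after the table was seen, had 3 higher and 1 lower of 8. The marker lists gave 60 lower of 74 for green tissue, 3 higher and 33 lower of 79 for secondary wall and vascular tissue, 1 higher and 10 lower of 99 for anther and pollen, and 8 higher and 5 lower of 78 for dividing cells.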

How the data were processed

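RNA was sequenced from 34 libraries of basal and central spikelets (17 each) in 12 groups; RNA integrity numbers were above 7, per the labels' protocols. The deposited table gives FPKM and estimated counts per gene model, per the file headers; the estimated counts are whole numbers with an excess at multiples of 4. Bowtie 0.12.2 is named in the submitters' processing notes, beside mouse builds; the aligner, counter, wheat build and strand setting used are not given in the sources used here. Coordinates are those of the deposited table. 154 of 157 members (98.1%) overlap a RefSeq protein-coding gene of the IWGSC Chinese Spring assembly, and 13 (8.3%) after a shift of 5 Mb.

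Models with FPKM of 1 or more in at least 2 libraries were kept. Estimated counts were fitted with edgeR 4.0.16 in R 4.3.3 (TMM, quasi-likelihood, 12 group means), with contrasts for the mean of 6 daily basal minus central differences, each day, each step and a difference that changes over days. P-values were Benjamini-Hochberg adjusted over 71963 models, with calls at 0.05. Errors of log2 differences are standard errors, and differences without an error are in the same unit. The procedure was tested on simulated data. Alternatives were DESeq2 1.42.0, its size factors, no filter, a filter of 6 libraries, limma 3.58.1 on log2(FPKM + 1), a replicate block, a mean without day 9, and leaving out each library. Groups at 0 are given as levels, or with a floor of 12 counts per library. The floor covers counting error only.

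The members, lists and rules were chosen with earlier results of these data known. Named were TraesCS5A03G0784800, the 5 members with the highest mean FPKM, and the 6 highest and 6 lowest called mean differences. The 2 highest and 2 lowest called per day, the 4 smallest p for a difference that changes over days, and the largest rise and fall per step were added, all with a group mean of at least 5 FPKM. For each pathway list, the called model with the smallest p in each direction was named. A rule for copies by protein could not be applied, so copies were matched by described number and chromosome group. Copies outside the rule, and the sets and shares of the sum, were chosen after values were seen.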

Additional observations from a re-analysis of the deposited data

Results flagged for a closer look

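In 128 members the basal minus central difference changed over the days (edgeR F test, adjusted over all models; 56.7% of all models were called). The smallest adjusted p among members with a group mean of 5 FPKM were 5.7e-13 for TraesCS2D03G0228300 and 1.38e-11 for TraesCS2B03G0306900, both peroxidase 2-like, and 1.17e-12 for TraesCS4D03G0203300 and 2.64e-11 for TraesCS4A03G0539300, both peroxidase 43-like. These were singled out because the difference itself was tested across days. The 2 peroxidase 2-like models each had 2 groups at 0 in all libraries.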

How the results depend on the processing

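The mean of 6 days gave 21 higher members with limma on log2(FPKM + 1), 26 lower without day 9, and day 6 gave 13 higher with DESeq2. Leaving out 1 library gave 11 to 15 higher and 36 to 45 lower in the mean. By day the ranges were 4 to 8 and 22 to 32 (day 6), 16 to 22 and 58 to 68 (day 9), 11 to 23 and 42 to 48 (day 12), 23 to 37 and 21 to 39 (day 15), 29 to 58 and 8 to 21 (day 21), and 16 to 21 and 24 to 40 (day 27). For the steps they were 80 to 89 and 11 to 16, 91 to 102 and 10 to 12, 58 to 66 and 23 to 35, 38 to 43 and 67 to 75, and 37 to 43 and 80 to 86. The test of a difference that changes over days called 124 to 131. The mean difference of TraesCS5A03G0784800, with groups at 0, was -0.54 with limma, opposite in sign to the untestable edgeR value. Replicate numbers gave no clear sign of pairing (r of -0.245 to 0.267, with 2 of 16 same-number pairs above 0.1 and 2 under -0.1). These are correlations of deviations from means of 2 or 3 libraries, so they cannot settle whether samples were paired. With the replicate block the counts of members stayed within 1.5 times, and of the named differences only TraesCS2B03G0738900 on day 21 was lost (-0.71, adjusted p = 0.077). Where not shown by fewer libraries, the cause was not tested. Central day 21 and basal day 15 have 2 libraries, and near-identical copies limit single-copy values.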
